A study of Mus musculus with 12 samples.

Results

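The genes described here encode the proton pump of the lysosome, its cathepsin proteases and a few proteins that define or regulate this organelle, measured in mouse follicular (FO) B cells. Members were the protein-coding rows of the count table whose symbol began with Atp6v or Atp6ap, or was Cts followed by 1 letter, together with Lamp1, Lamp2, Lgmn, Ifi30, Tfeb, Tfe3 and Mcoln1. The rule itself uses names and biotypes and no measured value. Of 22561 rows, 40 met this rule, and 31 of these passed the filter on low counts and were tested. Ifi30, a lysosomal thiol reductase, carries another biotype in the table and so was not a member, and its values are given beside the members.

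Sorted splenic FO B cells of C57BL6 mice, 10 weeks of age by the series' description, were left unstimulated or were stimulated for 12 h with IFNα (a type I interferon), with CpG (an oligonucleotide ligand of TLR9) or with CpG + IFNα, and each of the 4 groups had 3 samples. The labels name no allele or transgene in any group. The labels do not say that replicates came from separate animals, so the p-values measure the spread between these samples, which may be partly technical. Whether unstimulated cells were cultured for the same time is not given in the sources used here, so an effect of culture cannot be told apart from an effect of a stimulus in the comparisons with them. In bulk RNA, fewer cells of one kind and less RNA per cell cannot be told apart.

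Lysosomes are acidified by the vacuolar ATPase, in which a cytosolic V1 sector hydrolyses ATP and a membrane V0 sector carries protons into the lumen. Cathepsins are proteases that work in this acidic lumen, and in B cells several of them process antigen and the invariant chain of MHC class II. TLR9 itself senses DNA in these compartments and is cleaved there by proteases that include cathepsins and the asparagine endopeptidase encoded by Lgmn. Tfeb and Tfe3 encode transcription factors of the MiT/TFE family, which bind E-box sequences in promoters of lysosomal genes and are held in the cytosol by mTORC1.

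Totals were 922450 to 1103064 counted transcripts (unique molecular identifiers, UMIs) per unstimulated sample. They were 1067324 to 1689570 under IFNα, 1393018 to 1985810 under CpG and 1884673 to 2923865 under both stimuli, so depth differed between the groups. Levels are given as normalized CPM, that is, counts scaled to a fixed library total after scaling by trimmed mean of M values (TMM). They are relative to the other transcripts of a sample, so a lower level need not mean fewer transcripts per cell. Because each molecule was counted once near its 3′ end, these levels do not grow with transcript length and were set side by side between genes. A gene was called where edgeR's quasi-likelihood test gave an adjusted p under 0.1, with the adjustment made across the 9431 genes that entered the fit, and fold changes are on the log2 scale with their standard error (SE). Of the 10 B cell markers examined, none was at 0 in any group, and their summed level was 18194 to 20764 CPM in unstimulated samples, 17213 to 19287 under IFNα, 6523 to 6773 under CpG and 5824 to 5933 under both stimuli. The comparisons share samples, so their values for the members are given side by side and are not independent.

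Promoter windows of RefSeq (GRCm38.p6), from 250 bases before to 50 after a gene's start, were found for 31 of the 40 members. The E-box core CACGTG stood in the windows of 11 of these 31 members (35.5%), against 8.09% of all 27025 genes with a window, and the longer form TCACGTGA stood in 6 of them (19.4%), against 1.12%. Both motifs are their own reverse complement, and the longer contains the shorter. The motif GAAANNGAA, searched on both strands as the core of interferon response elements, stood in 5 members (16.1%), against 9.76% of all genes. The following stretches of 100 bases are those of the 6 members with TCACGTGA, shown because 3 of them are pump subunits, 2 are cathepsins and 1 is the channel gene Mcoln1, with the motif in capitals.
Ctsa (chr2:164833714-164833813, plus strand): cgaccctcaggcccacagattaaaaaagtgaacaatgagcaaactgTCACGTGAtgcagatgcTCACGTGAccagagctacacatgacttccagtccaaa
Ctsd (chr7:142387873-142387972, minus strand): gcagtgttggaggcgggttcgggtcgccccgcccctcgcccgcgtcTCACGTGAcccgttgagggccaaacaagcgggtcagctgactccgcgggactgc
Mcoln1 (chr8:3500427-3500526, plus strand): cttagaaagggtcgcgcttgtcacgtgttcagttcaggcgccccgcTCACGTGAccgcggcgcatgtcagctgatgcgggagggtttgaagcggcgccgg
Atp6v0d1 (chr8:105566015-105566114, minus strand): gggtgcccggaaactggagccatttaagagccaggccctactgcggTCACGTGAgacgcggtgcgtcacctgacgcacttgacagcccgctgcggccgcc
Atp6v0e (chr17:26676346-26676445, plus strand): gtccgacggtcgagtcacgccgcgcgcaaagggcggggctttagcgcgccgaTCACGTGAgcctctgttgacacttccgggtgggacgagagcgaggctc
Atp6v1a (chr16:44139338-44139437, minus strand): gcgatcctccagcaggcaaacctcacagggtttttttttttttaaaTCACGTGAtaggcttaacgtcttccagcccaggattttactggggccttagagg
Ctss and Ctso are shown because they hold GAAANNGAA, in capitals, close to the start site, and because Ctss rose with IFNα while Ctso was not called there.
Ctss (chr3:95526719-95526818, plus strand): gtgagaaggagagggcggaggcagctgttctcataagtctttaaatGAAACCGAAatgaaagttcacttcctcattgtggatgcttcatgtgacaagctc
Ctso (chr3:81932551-81932650, plus strand): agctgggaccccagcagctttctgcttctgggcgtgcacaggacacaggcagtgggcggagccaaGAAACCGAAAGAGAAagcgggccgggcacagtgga
The presence of these letters describes the window and does not show that a factor bound there.

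CpG lowered most of these transcripts. Against unstimulated cells, 19 of the 31 members fell (61.3%) and 3 rose, beside 38.3% of all genes tested that fell and 36.5% that rose. A fall of more than 2-fold was found for 14 members, beside 25.5% of all genes. The members' median log2 fold change was -0.93, and that of all genes tested was -0.03. The change was uneven over the machinery. Of the 10 cathepsins tested, 8 fell, each more than 2-fold, and 1 rose, with a median of -1.89. All 5 V0 subunits tested fell, with a median of -0.48, whereas of 8 V1 subunits 1 fell and 2 rose, with a median of 0.17.

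With CpG + IFNα against unstimulated cells, 21 members fell (67.7%) and 4 rose, beside 38.8% and 37.6% of all genes tested, and 14 fell more than 2-fold, beside 25.6%. The members' median was -0.53 and that of all genes -0.01. The cathepsins fell in 9 of 10 cases, with a median of -1.67.

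**Figure D1:**
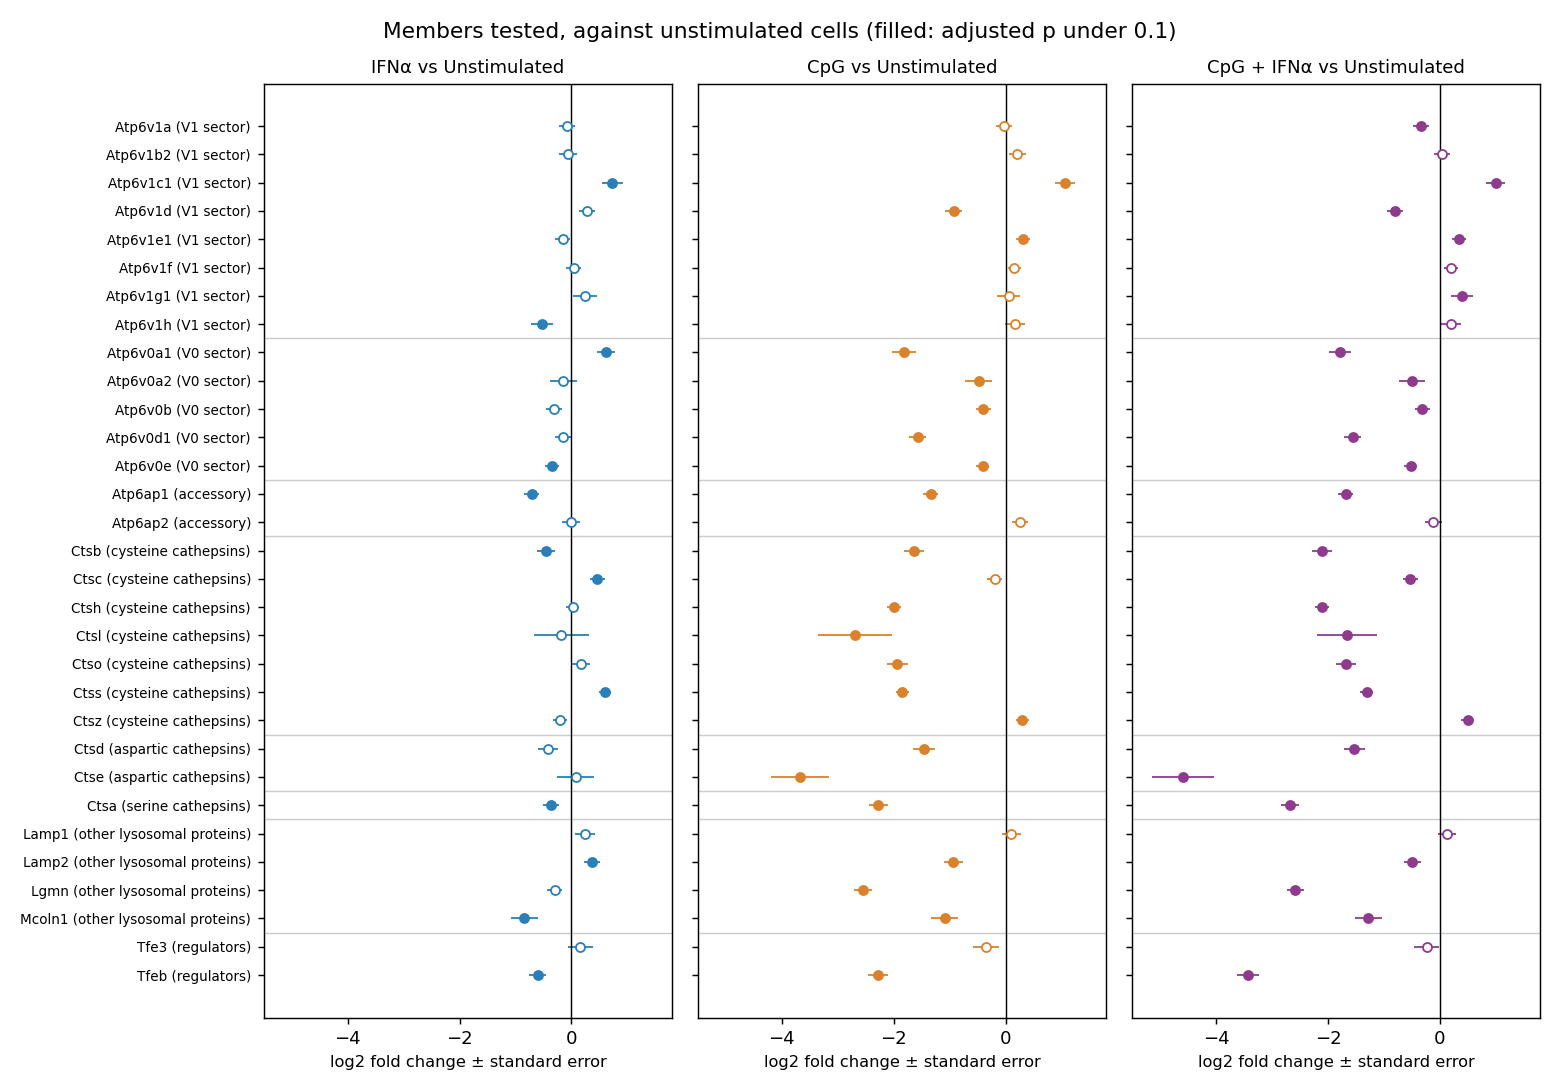
Log2 fold change (x axis, bars: standard error) of the 31 members tested, ordered by role, for IFNα, CpG and CpG + IFNα, each against unstimulated cells. Filled points had an adjusted p under 0.1; with CpG, 8 of 10 cathepsins and all 5 V0 subunits are filled and left of 0, while the V1 subunits lie on both sides.

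Cathepsin S, the protease that trims the invariant chain in antigen-presenting cells, was the most abundant member in unstimulated cells. Ctss was at 737, 810.3 and 727 normalized CPM in the unstimulated samples, 1275, 996 and 1187 under IFNα, 229, 191 and 209.9 under CpG and 294, 305 and 321 under both. The groups did not overlap, with IFNα highest and CpG lowest. The log2 fold change of Ctss was -1.85 (SE 0.12, adjusted p = 2.22e-15) with CpG against unstimulated cells and -1.30 (SE 0.11, adjusted p = 4.05e-12) with CpG + IFNα.

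Cathepsin H, an aminopeptidase of lysosomes, fell 4-fold. Ctsh was at 289, 329 and 335 normalized CPM in the unstimulated samples, 320.2, 311 and 338 under IFNα, 73.7, 88.4 and 76.7 under CpG and 60.6, 80.7 and 77.5 under both. All stimulated samples with CpG lay below all samples without it. The log2 fold change of Ctsh with CpG was -2.00 (SE 0.13, adjusted p = 2.06e-15).

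Ctso was at 84.8, 79.5 and 73.5 normalized CPM in the unstimulated samples, 97.1, 100.1 and 69.6 under IFNα, 22.6, 19.8 and 19.8 under CpG and 18.9, 28.7 and 25.0 under both. Ctso encodes a lesser-known cysteine protease, and its CpG and CpG + IFNα samples overlapped each other and lay below the rest. Ctsb was at 73.1, 93.3 and 74.4 normalized CPM in the unstimulated samples, 65.0, 53.1 and 59.0 under IFNα, 23.8, 28.3 and 25.3 under CpG and 16.8, 15.7 and 24.0 under both. Cathepsin B, a broadly expressed cysteine protease, likewise stood lower in every sample with CpG. Log2 fold changes with CpG were -1.93 (SE 0.19, adjusted p = 8.63e-11) for Ctso and -1.64 (SE 0.18, adjusted p = 9.35e-10) for Ctsb.

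Cathepsin Z, a carboxypeptidase, was the one cathepsin that rose with CpG or CpG + IFNα against unstimulated cells. Ctsz was at 241, 257 and 255 normalized CPM in the unstimulated samples, 235, 189 and 235 under IFNα, 292, 297 and 337 under CpG and 367, 294 and 404 under both. The CpG samples lay above all unstimulated samples. Its log2 fold change was 0.30 (SE 0.12, adjusted p = 0.0306) with CpG and 0.50 (SE 0.12, adjusted p = 0.000569) with CpG + IFNα, and the first call was lost without CpG replicate 3 (adjusted p = 0.106). That call was also lost with counts thinned at random to the lowest sample total (0.195, adjusted p = 0.202). Cathepsin C, which activates serine proteases of granules, was not called with CpG. Ctsc was at 163, 191 and 193 normalized CPM in the unstimulated samples, 301, 194 and 264 under IFNα, 162, 157 and 159 under CpG and 134, 113 and 134 under both. The CpG samples lay just under the unstimulated ones, and the log2 fold change was -0.19 (SE 0.14, adjusted p = 0.206).

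The aspartic and serine cathepsins fell as well. Ctsd was at 53.3, 73.2 and 49.9 normalized CPM in the unstimulated samples, 40.0, 46.4 and 43.1 under IFNα, 15.2, 22.6 and 25.3 under CpG and 21.1, 20.5 and 18.9 under both. Ctsa was at 110.1, 135 and 98.0 normalized CPM in the unstimulated samples, 86.1, 92.9 and 86.3 under IFNα, 28.0, 17.7 and 23.8 under CpG and 19.5, 17.1 and 16.8 under both. Ctsd encodes a major aspartic protease of lysosomes and Ctsa a carboxypeptidase that also protects other lysosomal enzymes, and for both the samples with CpG did not overlap those without. Log2 fold changes with CpG were -1.45 (SE 0.20, adjusted p = 9.05e-08) for Ctsd and -2.28 (SE 0.17, adjusted p = 1.31e-13) for Ctsa.

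Of the 2 members of low count, Ctse, an aspartic protease of endosomes, went from 15 to 19 counts per unstimulated sample to 1, 2 and 3 counts with CpG and 0, 4 and 0 with CpG + IFNα. Ctse was at 13.5, 18.0 and 16.6 normalized CPM in the unstimulated samples, 13.0, 21.1 and 15.1 under IFNα, 0.609, 1.41 and 1.49 under CpG and 0, 1.37 and 0 under both. The stimulated levels with CpG were at or near the floor of 3 counts, so the exact size of its falls is uncertain. Its fitted log2 fold change with CpG was -3.67 (adjusted p = 1.93e-07), and between -3.895 and -3.368 under the alternative settings and with each sample left out. With CpG + IFNα it was -4.59 (adjusted p = 5.92e-09), and between -7.54 and -4.12 under the same alternatives. Ctsl was at 12.6, 3.18 and 7.88 normalized CPM in the unstimulated samples, 11.0, 4.82 and 6.81 under IFNα, 1.22, 2.83 and 0 under CpG and 2.7, 2.74 and 2.04 under both. Ctsl, which encodes cathepsin L, had 0 to 14 counts in any sample and widely spread unstimulated samples. Its log2 fold change was -2.69 (SE 0.66, adjusted p = 0.000606) with CpG and -1.65 (SE 0.54, adjusted p = 0.00712) with CpG + IFNα, and the second call was lost without unstimulated replicate 1 (adjusted p = 0.124). The first value was -3.67 without CpG replicate 2 and -1.97 without CpG replicate 3.

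**Figure D2:**
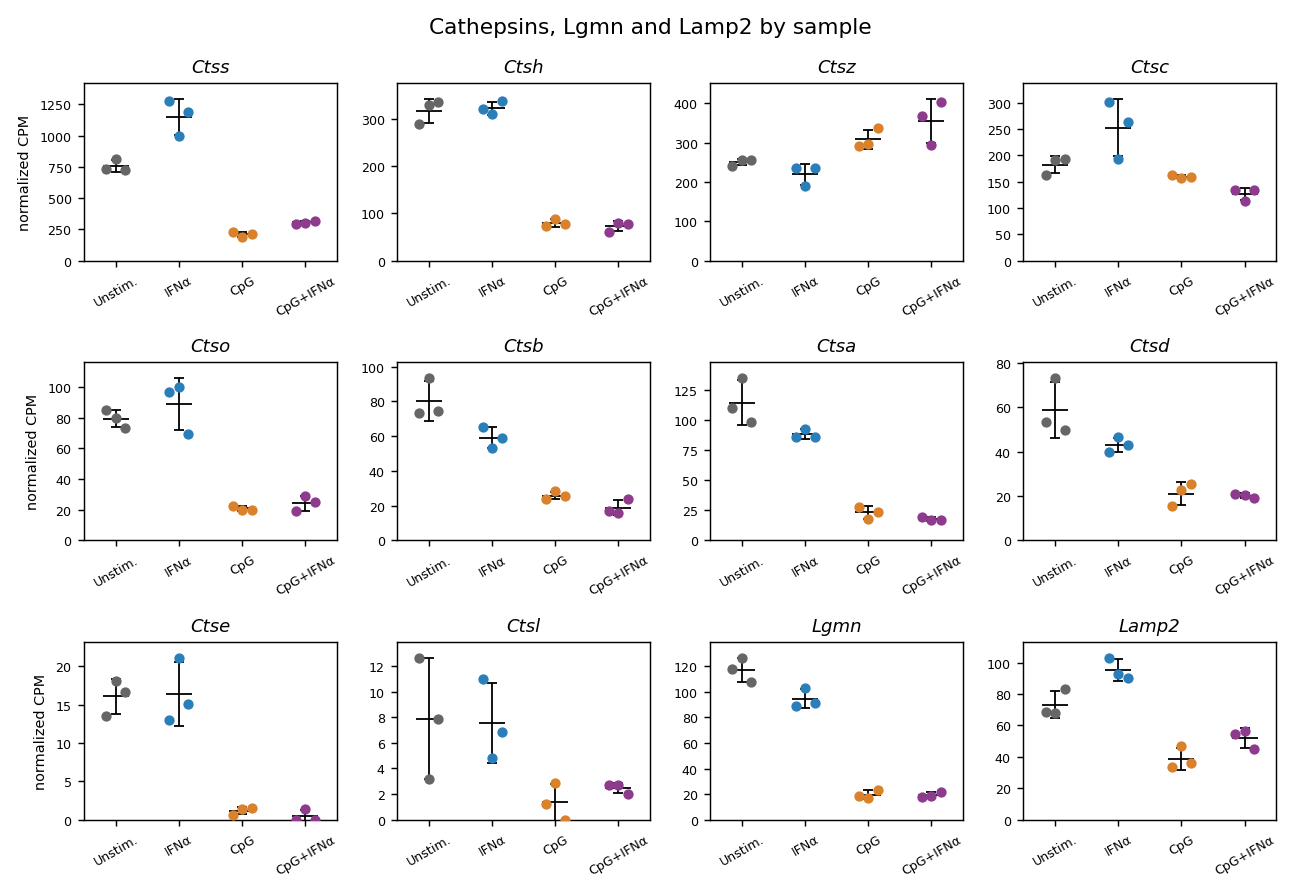
Normalized CPM (y axis, from 0) of 10 cathepsins, Lgmn and Lamp2 in each sample (points), with the mean and SD of 3 samples (bars) per group. Ctss, Ctsh, Ctso, Ctsb, Ctsa, Ctsd, Ctse and Lgmn lie lower in every sample with CpG than in every sample without, whereas Ctsz lies higher with CpG than in unstimulated cells.

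Lgmn, the asparagine endopeptidase, fell with CpG, as did 8 of the 10 cathepsins. Lgmn was at 118, 126 and 108 normalized CPM in the unstimulated samples, 89.1, 103 and 91.6 under IFNα, 18.9, 17.0 and 23.3 under CpG and 17.8, 18.8 and 21.9 under both. Samples with and without CpG did not overlap, and the log2 fold change with CpG was -2.54 (SE 0.16, adjusted p = 3.65e-15). Ifi30, which reduces disulfide bonds of antigens in lysosomes, followed the same order. Ifi30 was at 358, 415 and 395 normalized CPM in the unstimulated samples, 248, 263 and 267 under IFNα, 49.4, 62.2 and 68.3 under CpG and 40.0, 37.0 and 48.9 under both. Its log2 fold change was -2.69 (SE 0.13, adjusted p = 3.02e-18) with CpG and -3.22 (SE 0.13, adjusted p = 2.71e-20) with CpG + IFNα.

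Macrophages are rich in these proteases, and 10 of their markers summed to 12.6 to 49.9 CPM in unstimulated samples, 6.63 to 12.9 under IFNα, 0.707 to 2.97 under CpG and 0.510 to 1.62 under both stimuli. Lyz2, C1qa, C1qb, C1qc, Cd14 and Fcgr1 were at 0 in all 9 stimulated samples, as was S100a8, the neutrophil marker in the table. The highest marker sum was that of unstimulated replicate 2, in which Ctsd, Ctsb, Ctsa and Lgmn were also highest within their group. Without that sample, 8 of 10 cathepsins again fell more than 2-fold with CpG, with a median log2 fold change of -1.84, but the marker sums of the other 2 unstimulated samples, 12.6 CPM or more, were still above those of every sample with CpG. Among dendritic cell markers, 4 plasmacytoid ones summed to 1.81 to 7.42 CPM in unstimulated samples, 8.33 to 10.01 under IFNα, 6.36 to 19.5 under CpG and 19.8 to 21.9 under both. All samples with IFNα, alone or with CpG, lay above the unstimulated samples in this sum, and Siglech and Klk1 were at 0 in all groups. The 3 conventional ones in the table summed to 11.4 to 11.7, 3.78 to 8.01, 7.92 to 21.2 and 8.65 to 14.03 CPM in the same order. T and NK cell markers reached at most 1.81 CPM in any sample. Erythroid markers spread widely, from 56.9 to 342 CPM in unstimulated samples, 15.1 to 333 under IFNα, 4.95 to 60.3 under CpG and 5.61 to 71.4 under both. The 4 plasma cell markers summed to 118 to 144, 97.1 to 114, 53.7 to 79.8 and 45.5 to 72.9 CPM in the same order. The part of the macrophage, dendritic, B cell, erythroid and plasma cell markers in the result was not tested.

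Summed over all cathepsins, the level was 1866 ± 109.7 CPM (SD, n = 3) in unstimulated cells, 2252 ± 224 under IFNα, 851 ± 26.4 under CpG and 945 ± 73.1 under both stimuli. Leaving out Ctsz, the sums were 1615, 2033, 542 and 591 CPM. The makeup of this pool changed with CpG. Ctss made up 40.7% ± 0.869 of it in unstimulated cells and 51.1% ± 1.32 with IFNα, but 24.7% ± 2.05 with CpG and 32.5% ± 1.88 with CpG + IFNα. Ctsz went the other way, from 13.5% ± 0.512 in unstimulated cells and 9.73% ± 0.404 with IFNα to 36.2% ± 1.99 with CpG and 37.4% ± 3.45 with CpG + IFNα. By group means Ctsz was the largest part of the pool in both groups with CpG, but with CpG + IFNα its share in single samples (33.4% to 39.5%) overlapped that of Ctss (31.4% to 34.7%), and in CpG + IFNα replicate 2 Ctss was above Ctsz.

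**Figure D3:**
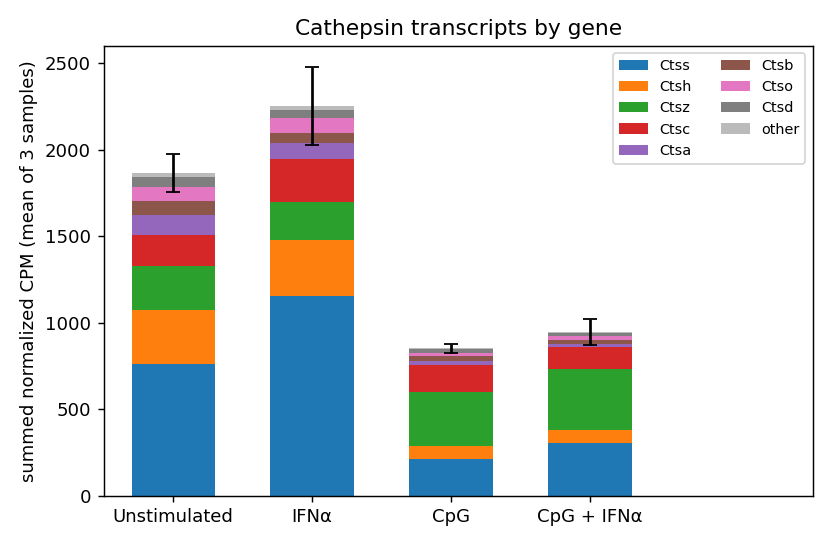
Mean normalized CPM of each cathepsin (stacked bars, n = 3 samples per group, error bar: SD of the sum), with cathepsins outside the 8 named drawn as other. The bars reach 1866 and 2252 CPM without CpG and 851 and 945 with it, and the Ctsz segment is the largest by mean in both bars with CpG.

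Among the 5 membrane (V0) subunits of the pump tested as members, CpG lowered Atp6v0a1 and Atp6v0d1 most. Atp6v0a1 was at 38.8, 45.6 and 45.5 normalized CPM in the unstimulated samples, 60.0, 74.2 and 62.8 under IFNα, 10.4, 12.0 and 13.9 under CpG and 12.4, 13.0 and 11.7 under both. Atp6v0d1 was at 98.4, 90.2 and 78.8 normalized CPM in the unstimulated samples, 74.1, 82.6 and 83.3 under IFNα, 28.0, 29.0 and 32.2 under CpG and 33.0, 28.7 and 29.6 under both. For both, samples with CpG lay far below those without, and only Atp6v0a1, one of the alternative proton-channel subunits, was raised by IFNα alone. Log2 fold changes with CpG were -1.82 (SE 0.21, adjusted p = 3.71e-09) for Atp6v0a1 and -1.57 (SE 0.16, adjusted p = 1.38e-10) for Atp6v0d1, the subunit of the central stalk. The other V0 subunits changed less, with log2 fold changes of -0.48 (SE 0.24, adjusted p = 0.0682) for Atp6v0a2, -0.40 (SE 0.14, adjusted p = 0.0116) for Atp6v0b and -0.41 (SE 0.12, adjusted p = 0.00276) for Atp6v0e, the most abundant of the 5 at 186 ± 10.5 CPM (SD, n = 3) in unstimulated cells and 139 ± 13.5 with CpG. The call of Atp6v0b was lost without CpG replicate 2 (adjusted p = 0.110), and that of Atp6v0a2 without any 1 of unstimulated replicates 1 to 3 or CpG replicates 1 and 3 (adjusted p from 0.108 to 0.183). With CpG + IFNα against unstimulated cells all 5 again fell, at -1.79 (Atp6v0a1), -1.55 (Atp6v0d1), -0.50 (Atp6v0a2), -0.31 (Atp6v0b) and -0.52 (Atp6v0e) on the log2 scale. There Atp6v0b was lost without unstimulated replicate 3 or CpG + IFNα replicates 2 or 3 (adjusted p from 0.101 to 0.342), and Atp6v0a2 without unstimulated replicate 3 or CpG + IFNα replicate 2 (0.157 and 0.384).

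The accessory proteins, which help to assemble and target the pump, parted. Atp6ap1 was at 116, 139 and 123 normalized CPM in the unstimulated samples, 77.1, 73.0 and 80.2 under IFNα, 52.4, 46.0 and 49.5 under CpG and 37.9, 39.0 and 40.3 under both. Atp6ap2 was at 56.0, 59.4 and 59.5 normalized CPM in the unstimulated samples, 61.0, 51.9 and 62.1 under IFNα, 73.7, 61.5 and 72.8 under CpG and 57.9, 52.4 and 51.5 under both. Atp6ap1 stood lower in each stimulated group with no overlap between any of them, whereas Atp6ap2 lay between 51.5 and 73.7 CPM in all samples. The log2 fold change with CpG was -1.34 (SE 0.13, adjusted p = 1.68e-10) for Atp6ap1 and 0.26 (SE 0.15, adjusted p = 0.12) for Atp6ap2, which was called higher without any 1 of 5 samples, IFNα replicates 1 to 3, CpG replicate 2 and CpG + IFNα replicate 2 (adjusted p from 0.0473 to 0.0984).

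The cytosolic (V1) subunits did not fall as a group. Atp6v1c1, whose product links V1 to the membrane sector, rose with each stimulus. Atp6v1c1 was at 28.0, 36.1 and 38.5 normalized CPM in the unstimulated samples, 61.0, 59.7 and 50.0 under IFNα, 79.8, 60.1 and 73.3 under CpG and 68.1, 65.7 and 71.9 under both. All 9 stimulated samples lay above the unstimulated ones. Its log2 fold change was 1.06 (SE 0.17, adjusted p = 1.79e-06) with CpG, the one rise of more than 2-fold among the members, and 1.0 (SE 0.17, adjusted p = 3.32e-06) with CpG + IFNα.

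Atp6v1e1 was at 75.8, 92.3 and 96.3 normalized CPM in the unstimulated samples, 80.1, 78.4 and 79.5 under IFNα, 114, 107 and 108 under CpG and 109, 108 and 118 under both. Atp6v1e1, a subunit of the peripheral stalk, was higher in all samples with CpG than in all without. On the log2 scale the change was 0.32 (SE 0.13, adjusted p = 0.0265) with CpG and 0.34 (SE 0.12, adjusted p = 0.0149) with CpG + IFNα, and without unstimulated replicate 1 these calls were lost (adjusted p = 0.145 and 0.102). With counts thinned at random to the lowest sample total both were lost as well, at 0.169 (adjusted p = 0.310) and 0.129 (adjusted p = 0.447). The call with CpG was also lost with the DESeq2 Wald test (adjusted p = 0.106). Atp6v1d, of the central stalk, was the V1 subunit that fell, from 83.9, 74.2 and 77.0 CPM in unstimulated samples to 42.1, 45.2 and 37.1 with CpG, with no overlap and a log2 fold change of -0.93 (SE 0.15, adjusted p = 3.14e-06).

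The catalytic subunit Atp6v1a stood at 88.5, 73.2 and 77.0 CPM in unstimulated samples and 77.4, 70.7 and 84.7 with CpG, which overlapped, with a log2 fold change of -0.03 (SE 0.14, adjusted p = 0.85). With CpG + IFNα it was at 53.0, 64.3 and 71.4 CPM and its log2 fold change was -0.34 (SE 0.14, adjusted p = 0.0338), a call lost without unstimulated replicate 1 or CpG + IFNα replicate 1 (adjusted p = 0.202 and 0.208). The nucleotide-binding subunit Atp6v1b2, at 0.21 (SE 0.15, adjusted p = 0.199) with CpG, and Atp6v1f, at 0.16 (SE 0.12, adjusted p = 0.245), were not called in any of the 6 comparisons with all samples in the fit. Atp6v1f was called higher with CpG + IFNα against unstimulated cells without any 1 of 5 samples, unstimulated replicates 1 and 2, IFNα replicates 1 and 2 and CpG + IFNα replicate 2 (adjusted p from 0.0473 to 0.0905), and against IFNα without the last of these (0.0839). Atp6v1g1 was at 46.0, 33.9 and 35.0 normalized CPM in the unstimulated samples, 49.0, 47.0 and 40.9 under IFNα, 55.5, 28.3 and 35.6 under CpG and 44.9, 53.0 and 54.0 under both. The stalk subunit Atp6v1g1 overlapped between all groups, and it was called with CpG + IFNα against unstimulated cells at 0.40 (SE 0.20, adjusted p = 0.065) but not without unstimulated replicates 2 or 3 or CpG + IFNα replicates 2 or 3 (adjusted p from 0.112 to 0.162). This call was also lost with thinned counts (0.2235, adjusted p = 0.407) and with the DESeq2 Wald test (adjusted p = 0.139).

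Atp6v1h was at 94.8, 42.4 and 56.9 normalized CPM in the unstimulated samples, 49.0, 42.8 and 44.7 under IFNα, 68.9, 79.9 and 73.3 under CpG and 79.5, 75.6 and 70.3 under both. Atp6v1h, a regulatory V1 subunit, had 1 unstimulated sample far above the other 2, and its log2 fold change with CpG was 0.18 (SE 0.18, adjusted p = 0.382). Without that sample, unstimulated replicate 1, Atp6v1h was called higher with CpG (0.58, adjusted p = 0.00485) and with CpG + IFNα (0.60, adjusted p = 0.00279). Summed levels showed the split between the sectors. V1 subunits summed to 616 ± 43.9 CPM (SD, n = 3) in unstimulated cells, 633 ± 29.1 under IFNα, 675 ± 21.7 under CpG and 673 ± 37.6 under both stimuli. V0 subunits summed to 453 ± 17.1, 404 ± 14.5, 281 ± 23.0 and 279 ± 17.0 CPM in the same order. The V0 sum is incomplete, since it holds at most 2 counts of Atp6v0c per sample and leaves out Tcirg1, a V0 gene outside the symbol pattern. Atp6v0e alone made up 41.1% of it in unstimulated cells and 49.5% with CpG. The ratio below therefore describes these members and not the whole sectors. The ratio of the V1 to the V0 sum was 1.36 ± 0.147 in unstimulated cells, 1.57 ± 0.126 under IFNα, 2.41 ± 0.147 under CpG and 2.42 ± 0.235 under both stimuli, and samples with and without CpG did not overlap in it.

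**Figure D4:**
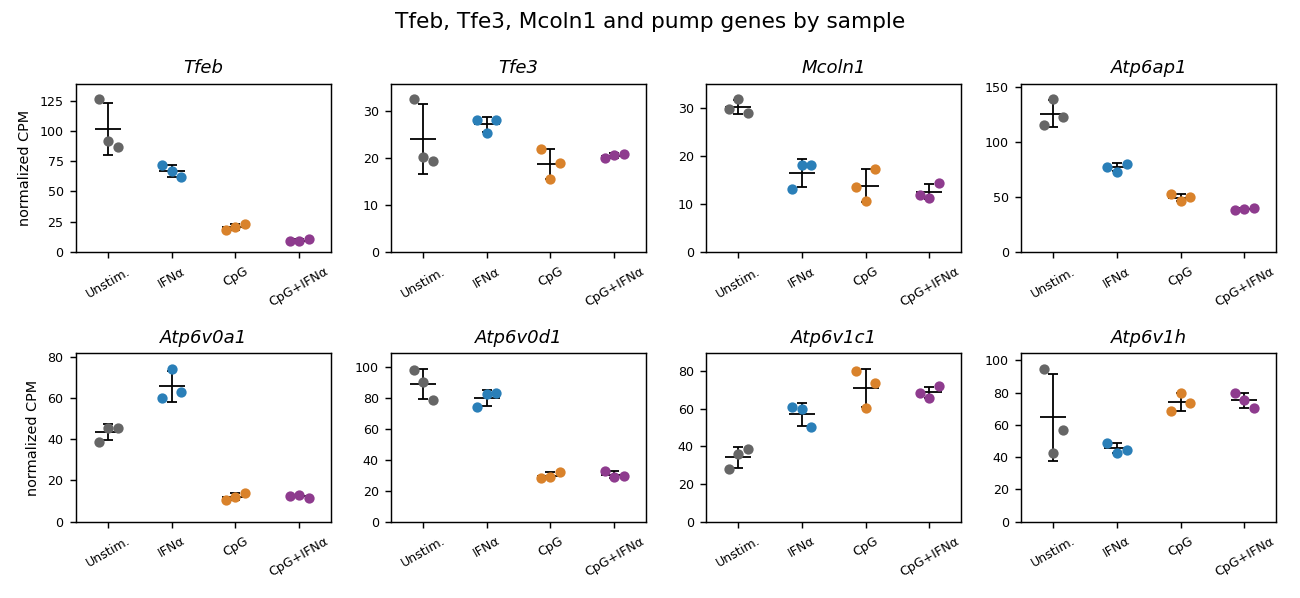
Normalized CPM (y axis, from 0) of Tfeb, Tfe3, Mcoln1 and 5 pump genes in each sample (points), with the mean and SD of 3 samples (bars) per group. Tfeb and Atp6ap1 step down from unstimulated cells to CpG + IFNα without overlap between groups, whereas Atp6v1c1 lies higher in all stimulated samples.

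Tfeb, the transcription factor of lysosomal genes, fell in every stimulated group. Tfeb was at 126, 91.2 and 86.6 normalized CPM in the unstimulated samples, 72.0, 66.9 and 62.1 under IFNα, 18.3, 20.5 and 23.3 under CpG and 8.65, 8.9 and 10.7 under both. The 4 groups did not overlap. On the log2 scale Tfeb changed by -2.28 (SE 0.18, adjusted p = 4.18e-13) with CpG and -3.43 (SE 0.19, adjusted p = 9.56e-17) with CpG + IFNα, a mean of 9.42 ± 1.12 CPM (SD, n = 3) against 101 ± 21.7. Tfe3 was at 32.5, 20.2 and 19.3 normalized CPM in the unstimulated samples, 28.0, 25.3 and 28.0 under IFNα, 21.9, 15.6 and 18.8 under CpG and 20.0, 20.5 and 20.9 under both. For Tfe3, its relative, the unstimulated samples overlapped those of every other group, and its log2 fold change was -0.35 (SE 0.24, adjusted p = 0.185) with CpG and -0.23 (SE 0.22, adjusted p = 0.359) with CpG + IFNα. Without unstimulated replicate 3 it was called lower with CpG (adjusted p = 0.0804).

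Mcoln1 encodes a calcium channel of the lysosomal membrane. Mcoln1 was at 29.8, 31.8 and 28.9 normalized CPM in the unstimulated samples, 13.0, 18.1 and 18.2 under IFNα, 13.4, 10.6 and 17.3 under CpG and 11.9, 11.3 and 14.3 under both. All stimulated samples lay below the unstimulated ones, with a log2 fold change of -1.09 (SE 0.24, adjusted p = 0.000167) with CpG and -1.28 (SE 0.24, adjusted p = 1.45e-05) with CpG + IFNα. The membrane glycoproteins Lamp1 and Lamp2, which line the organelle, differed. Lamp1 was at 48.7, 54.1 and 46.4 normalized CPM in the unstimulated samples, 64.0, 60.3 and 52.2 under IFNα, 50.6, 59.4 and 50.5 under CpG and 55.7, 45.2 and 63.7 under both. Lamp2 was at 68.6, 67.9 and 83.1 normalized CPM in the unstimulated samples, 103, 92.9 and 90.1 under IFNα, 33.5, 46.7 and 36.1 under CpG and 54.6, 56.5 and 44.9 under both. Lamp1 overlapped between all groups and was called in none of the 6 comparisons, with log2 fold changes of 0.10 (SE 0.17, adjusted p = 0.596) with CpG and 0.13 (SE 0.16, adjusted p = 0.485) with CpG + IFNα. Lamp2 stood lower in all samples with CpG, with log2 fold changes of -0.93 (SE 0.16, adjusted p = 7.68e-06) and -0.49 (SE 0.15, adjusted p = 0.00485).

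IFNα alone changed fewer of these genes. Against unstimulated cells 5 members rose and 7 fell (16.1% and 22.6%), beside 12.4% and 11.9% of all genes tested. The members' median log2 fold change was -0.08. The genes that rose were Atp6v1c1 at 0.73 (SE 0.18, adjusted p = 0.00309), Atp6v0a1 at 0.62 (SE 0.17, adjusted p = 0.00718), Ctss at 0.60 (SE 0.11, adjusted p = 8.01e-05), Ctsc at 0.46 (SE 0.13, adjusted p = 0.0124) and Lamp2 at 0.37 (SE 0.15, adjusted p = 0.085). For each of them the IFNα samples lay above all unstimulated ones. The genes that fell were Mcoln1 at -0.84 (SE 0.24, adjusted p = 0.0123), Atp6ap1 at -0.71 (SE 0.13, adjusted p = 0.000107), Tfeb at -0.61 (SE 0.16, adjusted p = 0.00439), Atp6v1h at -0.53 (SE 0.20, adjusted p = 0.0548), Ctsb at -0.45 (SE 0.16, adjusted p = 0.0509), Ctsa at -0.36 (SE 0.15, adjusted p = 0.0842) and Atp6v0e at -0.34 (SE 0.12, adjusted p = 0.0433). Of these, Atp6v1h overlapped between the groups.

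Of the 12 calls with IFNα alone, 5 were kept whichever sample was left out, namely Atp6v1c1, Atp6v0a1, Ctss, Mcoln1 and Atp6ap1. Tfeb was lost without unstimulated replicate 1 (adjusted p = 0.103) and Ctsc without IFNα replicate 1 (0.108). Ctsb was lost without unstimulated replicate 2 or IFNα replicates 2 or 3 (0.109 to 0.242), Ctsa without unstimulated replicates 1 or 2 or IFNα replicates 1 or 3 (0.128 to 0.384), and Atp6v0e without unstimulated replicate 2 or IFNα replicate 1 (0.122 and 0.178). Lamp2 was lost without unstimulated replicates 1 or 2 or IFNα replicates 1 or 2 (0.104 to 0.220), and Atp6v1h without unstimulated replicate 1 or IFNα replicates 2 or 3 (0.121 to 0.691), with a log2 fold change of -0.15 without the first of these. Ctsd was called lower without unstimulated replicate 3 or CpG replicate 1 (0.0620 and 0.0976), and Lgmn without unstimulated replicate 3 or IFNα replicate 2 (0.0851 and 0.0956).

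The study's main question was what IFNα adds to CpG. Between CpG + IFNα and CpG, 2 members rose and 3 fell (6.45% and 9.68%), beside 6.54% and 8.85% of all genes tested, shares close to the background. The median log2 fold change was -0.01, and that of all genes -0.04. Tfeb fell further, at -1.15 (SE 0.24, adjusted p = 0.0007), from 20.7 ± 2.5 to 9.42 ± 1.12 CPM (SD, n = 3), and was the one member past 2-fold. Ctss rose at 0.54 (SE 0.12, adjusted p = 0.00102), from 210.0 ± 19.1 to 307 ± 13.5 CPM, still below its unstimulated level. These 2 calls were kept whichever sample was left out. Ifi30 fell as well, at -0.53 (SE 0.15, adjusted p = 0.0158).

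The other 3 calls depended on single samples. Lamp2 rose at 0.44 (SE 0.16, adjusted p = 0.0632), with 1 CpG sample above the lowest CpG + IFNα sample, and was lost without CpG replicates 1 or 3 or CpG + IFNα replicates 1 or 2 (adjusted p from 0.150 to 0.251). Atp6ap2 fell at -0.37 (SE 0.13, adjusted p = 0.0694) and was lost without any 1 of 5 samples, unstimulated replicate 3, CpG replicates 1 and 3 and CpG + IFNα replicates 2 and 3 (0.138 to 0.229). Ctsc fell at -0.34 (SE 0.13, adjusted p = 0.096) and was lost without any 1 of 8 samples, all 6 of the groups compared, unstimulated replicate 3 and IFNα replicate 3 (0.106 to 0.369). None of the 13 V1 and V0 subunits was called here by edgeR or by DESeq2, and 1 of them (Atp6v1a) had an unadjusted p under 0.05, with medians of 0.02 for either sector. Without CpG replicate 1, however, Atp6v1g1 was called higher (0.65, against 0.35 with all samples, adjusted p = 0.0202), and without CpG + IFNα replicate 3 Atp6v1a was called lower (adjusted p = 0.0910), as was Ctsb (0.0463).

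Whether IFNα acted differently with CpG than without it was tested as the interaction. No member was called higher and 2 were called lower (0% and 6.45%), beside 5.83% and 7.61% of all genes tested. At an unadjusted p under 0.05, 3 were higher (Atp6v0b, Atp6v1h and Ctsz), and DESeq2 called 0. Ctsz was called higher without CpG + IFNα replicate 2 (adjusted p = 0.0649) and Atp6v1h without unstimulated replicate 2 (0.0371). Ctsc rose with IFNα alone and was lower with CpG + IFNα than with CpG, and the difference between these effects was -0.80 (SE 0.19, adjusted p = 0.00456). Atp6v1c1 rose with IFNα alone (0.73) but its level with CpG did not change detectably when IFNα was added (-0.06 (SE 0.14, adjusted p = 0.855)), a difference of -0.79 (SE 0.23, adjusted p = 0.0226). Both calls were kept whichever sample was left out. For Ctss the effects were 0.60 without and 0.54 with CpG, and the difference was -0.06 (SE 0.16, adjusted p = 0.887). For Tfeb they were -0.61 and -1.15, with a difference of -0.54 (SE 0.28, adjusted p = 0.256).

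**Figure D5:**
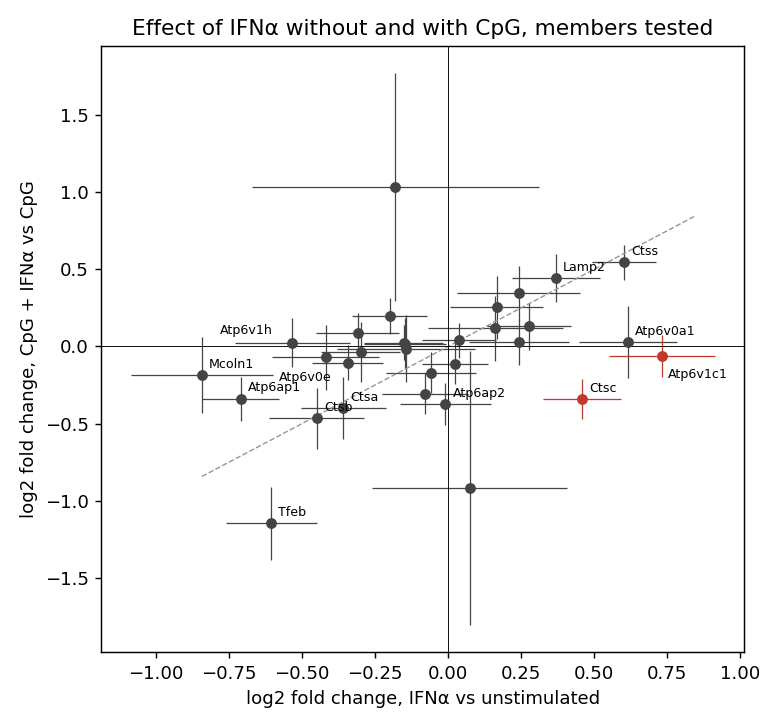
Log2 fold change of each tested member with IFNα against unstimulated cells (x axis) and with CpG + IFNα against CpG (y axis), with standard errors (bars) and the line of equal effects (dashed); members called in at least 1 of these comparisons are named. The 2 red points, Ctsc and Atp6v1c1, lie below the line and are the members with an interaction at adjusted p under 0.1.

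CpG + IFNα and IFNα were compared after the same 12 h of stimulation. Here 3 members rose and 18 fell (9.68% and 58.1%), beside 36.1% and 39.8% of all genes tested, with a median log2 fold change of -0.86 beside -0.07 for all genes. Of the 10 cathepsins 9 fell and Ctsz rose, at 0.70 (SE 0.12, adjusted p = 6.69e-06). The largest falls were those of Ctse at -4.66, with the low counts given above (-7.62 without CpG + IFNα replicate 2, the one of its group with any count), of Tfeb at -2.82 (SE 0.20, adjusted p = 3.31e-14), of Atp6v0a1 at -2.41 (SE 0.18, adjusted p = 1.21e-13) and of Ctsa at -2.32 (SE 0.17, adjusted p = 7.77e-14). Ctss fell at -1.91 (SE 0.11, adjusted p = 2.95e-16) and Ctsc at -0.99 (SE 0.13, adjusted p = 4.1e-08). Atp6v1h rose at 0.73 (SE 0.18, adjusted p = 0.000477) and Atp6v1e1 at 0.49 (SE 0.12, adjusted p = 0.000599), in both cases without overlap between the groups. Of the 5 V0 subunits, Atp6v0a1 and Atp6v0d1 fell in this comparison and the other 3 were not called, though Atp6v0a2 was called lower without IFNα replicate 2 or CpG + IFNα replicate 1 (adjusted p = 0.0922 and 0.0426). Atp6v1c1, not called here, was called higher without any 1 of 9 samples, all but IFNα replicate 3 and CpG + IFNα replicates 1 and 3 (0.0528 to 0.0926), and Mcoln1 lower without IFNα replicate 1 (0.0842). The falls of Tfe3 (-0.39 (SE 0.21, adjusted p = 0.0919)) and Atp6v1a (-0.26 (SE 0.14, adjusted p = 0.0922)) were each lost without any 1 of 11 of the 12 samples, all but unstimulated replicate 1 for Tfe3 (adjusted p from 0.105 to 0.212) and all but CpG + IFNα replicate 3 for Atp6v1a (0.109 to 0.402).

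Genes of the same organelle outside the members were examined as lists. Of 60 lysosomal hydrolases and partner proteins 53 were tested, and with CpG against unstimulated cells 41 fell (77.4%, beside 38.3% of all genes tested), 32 of them more than 2-fold (60.4%, beside 25.5%), and 4 rose (7.55%, beside 36.5%), with a median log2 fold change of -1.23. Among those that fell were Acp5, an acid phosphatase, at -5.11 (SE 0.24, adjusted p = 1.39e-18), Sgsh, a heparan sulfate sulfatase, at -4.47 (SE 0.45, adjusted p = 1.66e-10) and Tpcn1, an ion channel of endolysosomes, at -4.06 (SE 0.49, adjusted p = 7.34e-09). Sgsh had 5, 0 and 1 counts and Tpcn1 3, 0 and 4 in the CpG samples, at or near the floor of 3 counts, so these fitted values depend on how low counts are handled. Grn, the gene of progranulin, rose at 2.06 (SE 0.13, adjusted p = 3.32e-15), from a mean of 69.4 to 289 CPM, followed by Gusb, a glucuronidase, at 0.75 (SE 0.19, adjusted p = 0.000678) and Cln3 at 0.59 (SE 0.25, adjusted p = 0.0331). When IFNα was added to CpG, 3 of the 53 rose and 6 fell (5.66% and 11.3%), shares close to the 6.54% and 8.85% of all genes tested. Npc2, which carries cholesterol out of lysosomes, rose at 1.08 (SE 0.13, adjusted p = 1.39e-07), and Gusb, raised by CpG, fell at -1.08 (SE 0.17, adjusted p = 1.25e-05).

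Of 9 tested pump genes outside the symbol pattern, 6 fell more than 2-fold (66.7%, beside 25.5% of all genes) and 3 rose (33.3%, a share close to the 36.5% of all genes) with CpG. The 3 that rose encode factors that assemble V0 in the endoplasmic reticulum, Tmem199 at 1.53 (SE 0.22, adjusted p = 3.78e-07), Ccdc115 at 1.32 (SE 0.15, adjusted p = 2.9e-09) and Vma21 at 0.96 (SE 0.18, adjusted p = 2.12e-05). Tcirg1, an alternative form of the subunit encoded by Atp6v0a1, fell at -2.30 (SE 0.27, adjusted p = 3.81e-09), and Rogdi and Dmxl1, whose products belong to the complex that joins V1 to V0, fell at -3.13 (SE 0.32, adjusted p = 2.34e-10) and -1.53 (SE 0.15, adjusted p = 7.2e-11). Of the cystatins, which inhibit cysteine cathepsins, 2 were tested. Cst3 fell at -2.00 (SE 0.13, adjusted p = 3.38e-15) and Cstb rose at 0.35 (SE 0.17, adjusted p = 0.067) with CpG, and Cstb fell at -0.63 (SE 0.16, adjusted p = 0.00564) when IFNα was added. Of 9 tested genes of MiT/TFE partners and nutrient sensing on the lysosome, 4 rose and 4 fell with CpG (44.4% each), beside 36.5% and 38.3% of all genes tested. Lamtor5 of the Ragulator complex rose at 0.91 (SE 0.17, adjusted p = 2.49e-05), whereas Fnip1, a partner of folliculin, fell at -1.10 (SE 0.21, adjusted p = 3.08e-05).

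Members with and without the promoter motifs shown above overlapped in their log2 fold changes. Among the 23 tested members with a window, the 10 with CACGTG had a median log2 fold change with CpG of -1.27, between -2.69 and 0.10, and 8 of them fell, beside 38.3% of all genes tested. The 13 without it had a median of -0.93, between -2.28 and 0.32, and 7 of them fell. With IFNα alone, the 10 had a median of -0.30, between -0.84 and 0.24, with 3 called lower and 0 higher by edgeR (0 also at an unadjusted p under 0.05 and by DESeq2), and the 13 had a median of 0.16, between -0.71 and 0.62, with 4 higher and 2 lower, beside 12.4% and 11.9% of all genes tested. Of the 6 members with TCACGTGA, Ctsa, Ctsd, Mcoln1, Atp6v0d1 and Atp6v0e fell with CpG and Atp6v1a was not called. Of the tested members with GAAANNGAA, Ctss rose with IFNα, and Ctso (0.17), Atp6v1d (0.28) and Lamp1 (0.24) were not called.

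The 9 members that were not tested had few or no counts. Atp6v1b1, Atp6v1c2, Atp6v1g3, Atp6v1fnb and Ctsk had at most 1 count in any sample, Atp6v0c and Ctsw at most 2 and Atp6v1g2 at most 9. Ctsf had 0 counts in all 12 samples, which allows up to 0.158 CPM over them (3 counts, counting error only). Atp6v0c encodes the ring of the membrane sector, and its few counts need not mean that its transcript was scarce. Whether its reads were lost in alignment or counting was not tested. In the last 1000 bases of their transcripts Ctsb, Ctsz, Lamp1, Ctsa, Atp6v0a2 and Atp6v1e1 overlap a gene on the other strand, and Ctsd overlaps Gm49369 on its own strand in the annotation. The strand setting of the counting is not given in the sources used here, so reads of such pairs cannot be told apart if strand was not used.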

How the data were processed

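Bulk RNA barcoding sequencing (BRB-seq), which tags each molecule near its 3′ end, was done on 12 samples. Per the labels and the study's methods, the authors extracted identifiers with UMI-tools 1.1.2, trimmed with Trim Galore 0.6.7, aligned to GRCm38 with HISAT2 2.2.1 and counted with featureCounts 2.0.1, and the deposited table holds raw counts of unique UMIs per gene. The annotation release is not given in the sources used here, and GENCODE M21 (GRCm38) was used for gene overlaps. Counts were tested with edgeR 4.0.16 in R 4.3.3 (TMM factors, filterByExpr by group, glmQLFit and glmQLFTest, 1 fit of 4 groups, 8 residual degrees of freedom, Benjamini-Hochberg adjustment). Beside the adjusted p, the study's methods set a log2 fold change over 2 and its captions a fold change over 2, and the latter was tried as an alternative. The script was tested on simulated data. In the 12 pairs of replicates of one group the chi-square per degree of freedom was 1.90 to 6.31, so no pair was counted as 1 sample. Tlr9 was extended in the authors' annotation.

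Members, gene lists and tests were chosen with earlier results of these data known. Values per sample were given for the 4 members in each direction with the largest called change in each comparison and for Tfeb, Tfe3, Mcoln1, Lamp1, Lamp2, Lgmn, Ifi30, Atp6ap1 and Atp6ap2, and those of Ctsh, Ctso, Ctsb, Ctsd, Atp6v0d1, Atp6v1d and Atp6v1a were added after their values were seen. Of each list, up to 3 genes in each direction with the largest called change were eligible to be named. Alternatives were DESeq2 1.42.0 (size factors and Wald test), library sizes alone, no filter on low counts, counts thinned at random to the lowest sample total, a replicate block, that fold change and each sample left out. The list of sample barcodes entered no test.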

Additional observations from a re-analysis of the deposited data

Results flagged for a closer look

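The effect of IFNα differed with and without CpG for 2 of the 31 members tested, by the interaction test of edgeR. Both were called lower (6.45%), beside 7.61% of all genes tested, so this share is not above the background. For Ctsc the effect with CpG minus the effect without it was -0.799 on the log2 scale (SE 0.187, adjusted p = 0.00456). For Atp6v1c1 the same difference was -0.7949 (SE 0.228, adjusted p = 0.0226).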

How the results depend on the processing

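No member's call changed direction under any alternative. Of 186 member results, those that kept their side of the threshold numbered 184 with DESeq2 size factors, 177 with library sizes alone, 172 without a filter on low counts, 174 with the DESeq2 Wald test and 143 with a fold change over 2, and 165 of 180 with counts thinned at random to the lowest sample total, where Ctsl no longer passed the filter. Between CpG + IFNα and CpG, 1 member was higher (against 2) with the DESeq2 Wald test or thinned counts, and 1 was lower (against 3) with DESeq2 size factors, the Wald test, no filter or thinned counts. With thinned counts 1 member was higher with CpG (against 3) and 2 with CpG + IFNα (against 4), each against unstimulated cells. Between CpG + IFNα and IFNα, 5 were higher (against 3) with library sizes alone or without a filter, and the interaction gave 1 higher (against 0) with library sizes alone. With a fold change over 2, the members higher and lower numbered 0 and 0 with IFNα against unstimulated cells, 1 was higher with CpG and 1 with CpG + IFNα against unstimulated cells, 0 were higher and 1 lower between CpG + IFNα and CpG, 0 were higher between CpG + IFNα and IFNα, and 0 were lower in the interaction. Leaving out each sample in turn gave 3 to 5 higher and 4 to 9 lower with IFNα, 2 to 4 and 18 to 19 with CpG, 3 to 5 and 19 to 21 with CpG + IFNα (each against unstimulated cells), 1 to 2 and 1 to 3 between CpG + IFNα and CpG, 3 to 5 and 16 to 17 between CpG + IFNα and IFNα, and 0 to 1 and 2 in the interaction. Without a filter on low counts, where members of few counts also enter, the members' median log2 fold change moved as well. It was -0.355 with CpG (against -0.93) and -0.41 with CpG + IFNα (against -0.53), each against unstimulated cells. Between CpG + IFNα and IFNα it was -0.44 (against -0.86). The median of all genes was 0 in these 3 comparisons without a filter. The cause of these changes was not tested.

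Samples of different groups share replicate numbers, but the labels do not say what a number stands for. The deposited barcode list writes the number after WT in all 4 groups, so same-numbered samples may come from the same mice, which no source used here states. Deviations of same-numbered samples correlated between -0.0651 and 0.205 over genes, 5 of 18 pairs were over 0.1, and 10 of 12 samples correlated best with their own number. With a replicate block 185 of 186 member results kept their side of the threshold and 1 was gained (Ctsd with IFNα). Members under about 3 counts per sample, Ctse with CpG among them, lie at the limit of this depth.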
